A study of Mus musculus with 6 samples.

Results

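The integrated stress response genes described here are Atf4, Atf5, Atf3, Ddit3, Trib3, Chac1, Ddit4, Sesn2, Ppp1r15a and Vldlr. They are the transcription factors at the centre of the response and targets of theirs that do not belong to its amino acid metabolism enzymes. The 10 genes were chosen by symbol, and each matched 1 of the 24885 rows of the count table through its NCBI gene number.

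The data are poly(A)-primed 3' RNA-seq of mouse Eµ-Myc B-cell lymphoma cells, in which a Myc transgene driven by an immunoglobulin heavy chain enhancer causes the tumour. Both groups carried Cre-ERT2, a recombinase switched on by 4-hydroxytamoxifen (4-OHT), and both were homozygous for a floxed miR-17~92, a cluster of microRNA genes. The del group (3 libraries) had been exposed to 250 nM 4-OHT for 4 days and subcloned to obtain cells without the cluster, and the fl group (3 libraries) kept the floxed alleles. Both had then been grown for 48 hours on irradiated Ink4a-null fibroblast feeder cells. Exposure to 4-OHT and subcloning go with the deletion and cannot be told apart from it, and the sources used here do not give the number of clones behind the del libraries. Whether replicate libraries came from separate cultures is not stated, so p-values measure the spread between these libraries, which may be technical.

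The response adjusts translation and transcription to stress. Kinases that sense amino acid shortage, double-stranded RNA, misfolded protein in the endoplasmic reticulum or haem and mitochondrial stress phosphorylate the initiation factor eIF2. This lowers general protein synthesis but favours translation of mRNAs with upstream open reading frames, chiefly that of ATF4, which switches on genes of amino acid supply and, with prolonged stress, CHOP (the product of Ddit3). The counts measure transcripts alone, and neither eIF2 phosphorylation nor ATF4 protein was measured.

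Library totals were 2121796 to 3738720 counts in del and 6554423 to 9580630 counts in fl, so depth and group go together. Levels are given as CPM, a gene's counts relative to the scaled library size, and fold changes are del minus fl on the log2 scale with their standard errors. Mir17hg, the host transcript of the cluster, had 634, 320 and 762 counts in del and 2198, 2346 and 1789 counts in fl. Its fold change was -0.56 ± 0.15 (adjusted p = 0.00844, edgeR). Where its reads lie relative to the deleted part was not determined, so these counts do not check the deletion. The summed level of 11 B cell markers was 1210 to 1400 CPM in del and 56.3 to 66.4 CPM in fl. Of 9 myeloid markers the sum was 2530 to 3330 CPM in del and 295 to 306 CPM in fl. Of the 8 myeloid markers tested, 6 were higher and 2, Fcgr3 and Cd14, were lower in del; Fcgr3, at 81.3 ± 4.60 CPM in del and 244 ± 9.79 CPM in fl (SD, n = 3 libraries each), made up most of the fl sum. Of 6 epithelial markers the sum was 0.474 to 1.32 CPM in del and 371 to 411 CPM in fl, with Krt8 at 0 counts in del and Cdh1 at 0 counts in both groups. Krt18 at 214 CPM and Epcam at 170 CPM made up nearly all of the fl sum. Krt8 averaged 4.24 CPM in fl, and Krt19 had 2 counts over del and 1 over fl. The summed B cell markers of the labelled lymphoma were thus low in the fl libraries. The summed epithelial markers, carried by Krt18 and Epcam, were high there, and both go against the fl label. In the del libraries the myeloid sum of 2530 to 3330 CPM stood above the B cell sum of 1210 to 1400 CPM. The del libraries too thus carried markers that the B-cell lymphoma label does not name. Whether the fl libraries hold the same kind of cell as the del libraries is not settled here, so every fold below compares libraries by their labels, and a difference in cell population cannot be told apart from the deletion. Of 14 fibroblast markers, which feeder cells would carry, the sum was 10.5 to 29.8 CPM in del and 0.917 to 7.92 CPM in fl, with Lum at 0 counts in both groups. Of 7 T and NK cell markers the sum was 0.474 to 1.58 CPM in del and 1.26 to 1.79 CPM in fl, with Cd3e and Cd8a at 0 counts in both. The part of these cell type markers in the results below was not tested. In such bulk RNA, fewer cells with a transcript and less of it per cell cannot be told apart.

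Of the 10 genes, 9 had enough counts to be tested, and 6 of these differed between the groups. Trib3, Chac1, Ddit4 and Atf4 were lower in del, and Ddit3 and Atf3 were higher. Sesn2, Atf5 and Ppp1r15a did not pass the test (edgeR's quasi-likelihood test, Benjamini-Hochberg adjusted over 10260 genes, threshold 0.05). Over all genes tested, 65.1% passed, 32.6% lower and 32.5% higher in del, so the count of 6 among 9 is close to the background. The groups did not overlap for 7 of the 9 genes, against 69.9% of all genes tested. What follows therefore turns on the size and direction of each gene's change.

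**Figure D1:**
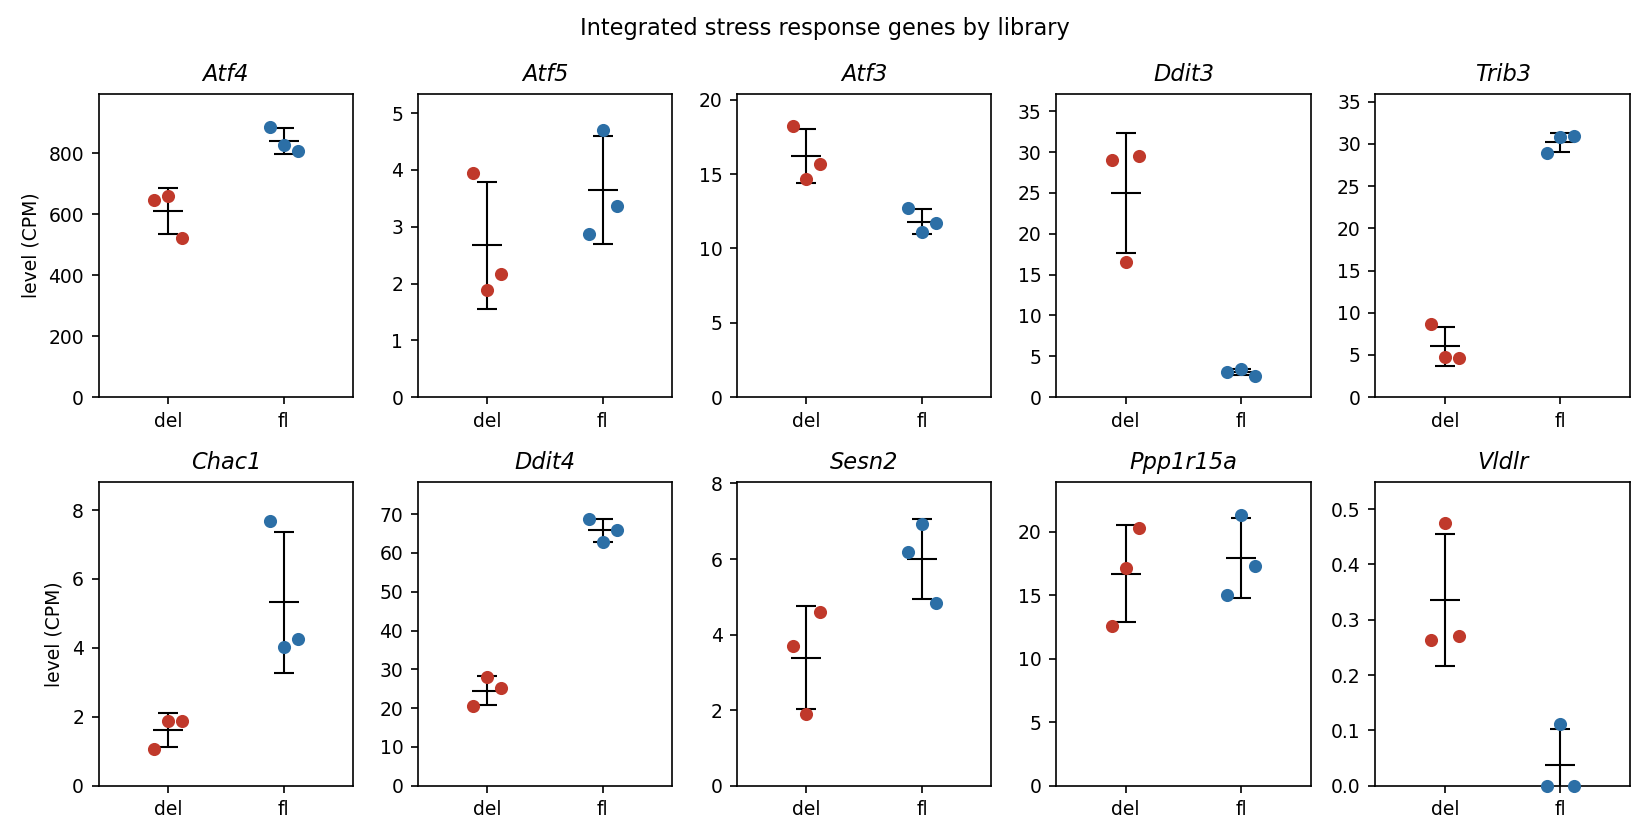
Level in CPM (vertical axes, each from 0 and scaled to its gene) of the 10 genes in the 3 del libraries (red) and the 3 fl libraries (blue); black bars give mean and SD. Ddit3 lies between 16.6 and 29.5 CPM in del and between 2.64 and 3.47 CPM in fl, while Trib3 lies between 4.60 and 8.69 CPM in del and between 28.9 and 30.9 CPM in fl.

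Atf4 encodes the main effector of the response. It was at 646, 660 and 523 CPM in del and at 887, 826 and 808 CPM in fl. All del libraries lay below all fl libraries, and the fold change was -0.46 ± 0.14 (adjusted p = 0.0166, edgeR). Atf4 (gene number 11911) lies on chromosome 15 of GRCm38, the assembly that mm10 represents, from 80255184 to 80257545. The longest annotated transcript of the gene has 2019 nucleotides, and the typical fold change of genes of that length was -0.37. With this length trend removed the Atf4 value was -0.09 and was no longer called (adjusted p = 0.603, edgeR).

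Atf5 encodes a relative of ATF4 whose translation is also controlled by upstream reading frames. It was low, with 15, 4 and 8 counts in del and 25, 42 and 23 counts in fl. The levels, 3.95, 1.89 and 2.16 CPM in del and 2.87, 4.70 and 3.37 CPM in fl, overlapped. The fold change was -0.39 ± 0.36 (95% interval -1.20 to 0.42, adjusted p = 0.36, edgeR). Of its libraries 2 of del and 3 of fl were over the low-count limit of 1.94 CPM, which is taken on unscaled library totals. Atf5 (gene number 107503) lies on chromosome 7 from 44812256 to 44816658, and Nup62 on the opposite strand overlaps it by 571 bases away from its 3' end.

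Atf3 (gene number 11910, chromosome 1 from 191170296 to 191183333) encodes a stress-induced factor of the same bZIP class that acts mostly as a repressor. It was at 18.2, 14.7 and 15.7 CPM in del and at 12.7, 11.1 and 11.7 CPM in fl. The groups did not overlap, and the fold change was 0.46 ± 0.16 (adjusted p = 0.0272, edgeR). The call depended on the setting. It was lost without del replicate 1 (0.36, adjusted p = 0.115, edgeR), without fl replicate 2 (0.42, 0.0799) or without fl replicate 3 (0.46, 0.0605). It was also lost under 5 other settings given in the closing section. With the length trend removed the value was larger, at 0.84 (adjusted p = 0.00155, edgeR).

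Ddit3 encodes CHOP, the factor that links prolonged stress to cell death. It had 110, 35 and 109 counts in del and 27, 31 and 18 counts in fl, although the fl libraries were deeper. Its level was 29.0, 16.6 and 29.5 CPM in del and 3.10, 3.47 and 2.64 CPM in fl. Every del library stood far above every fl library, and del replicate 2 was the lowest of the del group. The fold change was 3.04 ± 0.25, or 8.24-fold higher in del (95% interval 2.48 to 3.60 on the log2 scale, adjusted p = 9.94e-06, edgeR), and 4.26% of all genes tested rose by as much or more. Among the 9 tested genes it was the furthest from 0.

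Ddit3 (gene number 13198) lies on chromosome 10 from 127290793 to 127296291 on the plus strand. The gene Mars1 (Mars in GENCODE), which encodes methionyl-tRNA synthetase, runs on the opposite strand and overlaps the 3' end of Ddit3 by 71 bases. The libraries are strand-specific per the labels, but the sources used here do not give the strand setting of the counting. Mars1 averaged 69.0 ± 8.88 CPM in del and 93.0 ± 12.8 CPM in fl (SD, n = 3 libraries each). Its fold change of -0.43 (adjusted p = 0.0376, edgeR) runs in the opposite direction to that of Ddit3.

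Trib3 encodes a pseudokinase that is switched on by ATF4 and CHOP and feeds back on them. It had 33, 10 and 17 counts in del and 252, 275 and 211 counts in fl. The level was 8.69, 4.74 and 4.60 CPM in del and 28.9, 30.8 and 30.9 CPM in fl. The fl values lay close together, and the highest del value, in replicate 1, was far below them. The fold change was -2.28 ± 0.22, or 4.87-fold lower in del (adjusted p = 2.68e-05, edgeR), and 3.93% of all genes tested fell by as much or more. Trib3 (gene number 228775) lies on chromosome 2 from 152337425 to 152344060.

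Chac1 encodes an enzyme that degrades glutathione and is induced through ATF4. It was at 1.05, 1.89 and 1.89 CPM in del, from 4, 4 and 7 counts, and at 7.68, 4.03 and 4.25 CPM in fl, from 67, 36 and 29 counts. The groups did not overlap, and fl replicate 1 was the highest. The fold change was -1.76 ± 0.43 (95% interval -2.73 to -0.79, adjusted p = 0.00558, edgeR). On unscaled library totals, which the low-count limit of 1.94 CPM uses, 1 of its del and 3 of its fl libraries were over it. The gene thus entered the test through the group in which it was high. Chac1 (gene number 69065) lies on chromosome 2 from 119351242 to 119354326.

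Ddit4 (gene number 74747, chromosome 10 from 59949675 to 59951770) encodes REDD1, an inhibitor of the growth kinase complex mTORC1 that responds to ATF4, to low oxygen and to glucocorticoids. It was at 20.5, 27.9 and 25.1 CPM in del and at 68.7, 62.8 and 66.0 CPM in fl. All del values were below all fl values, and the fold change was -1.44 ± 0.15, or 2.71-fold lower in del (adjusted p = 4.07e-05, edgeR). With the length trend removed it was -0.97 and was still called (adjusted p = 0.000521, edgeR).

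Sesn2 encodes a leucine-sensing inhibitor of mTORC1 that ATF4 and p53 induce. It was at 3.69, 1.89 and 4.60 CPM in del, from 14, 4 and 17 counts. In fl it was at 6.19, 6.94 and 4.84 CPM, from 54, 62 and 33 counts. Only 2 of its del libraries but 3 of its fl libraries were over the low-count limit, so it entered the test through fl. The groups did not overlap, but the highest del and the lowest fl value were close. The fold change of -0.74 ± 0.30 missed the threshold (95% interval -1.42 to -0.07, adjusted p = 0.0532, edgeR). It passed without del replicate 3 (-1, adjusted p = 0.0401, edgeR) or without fl replicate 3 (-0.86, 0.0425). Sesn2 (gene number 230784) lies on chromosome 4 from 132492804 to 132510456.

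Ppp1r15a (gene number 17872, chromosome 7 from 45522917 to 45526268) encodes GADD34, the inducible cofactor of the phosphatase that reverses eIF2 phosphorylation. It was at 12.6, 17.1 and 20.3 CPM in del and at 15, 21.3 and 17.3 CPM in fl. The groups overlapped over most of their range, and the fold change was -0.11 ± 0.21 (95% interval -0.58 to 0.37, adjusted p = 0.674, edgeR), which leaves room for a change of either sign. Tulp2, which overlaps its 3' end by 716 bases on the other strand, had no count in any library.

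Vldlr (gene number 22359, chromosome 19 from 27216480 to 27254231) encodes a lipoprotein receptor that ATF4 induces under stress. It had 1 count in each del library and 0, 1 and 0 counts in the fl libraries. With 3 counts over del and 1 over fl, no difference was detectable at this depth and no fold is given.

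**Figure D2:**
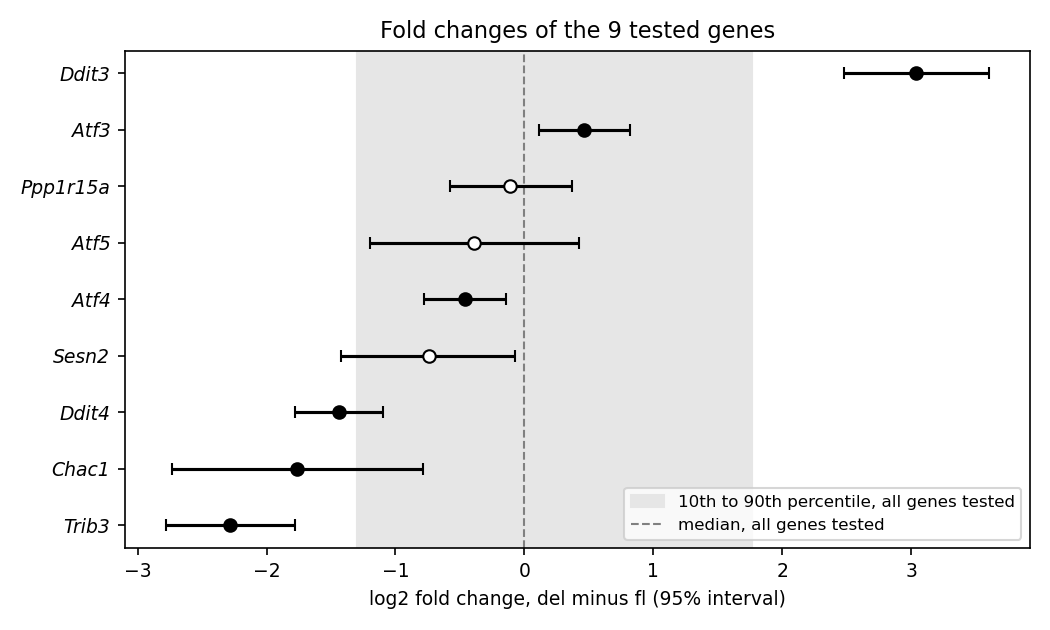
Fold change (del minus fl, log2 scale, horizontal axis) of the 9 tested genes with 95% intervals from edgeR; filled points passed the threshold. The grey band holds the 10th to 90th percentile of all genes tested, -1.30 to 1.77: Ddit3 lies above it, Trib3, Chac1 and Ddit4 lie below it, and the other genes lie inside.

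Raw counts of Trib3, Ddit4 and Ddit3 were also set against those of Atf4 in the same library, where no scaling between libraries enters. Per 100 Atf4 counts there were 1.34, 0.717 and 0.878 Trib3 counts in del and 3.26, 3.72 and 3.83 in fl. For Ddit4 the same ratio was 3.18, 4.23 and 4.8 in del and 7.75, 7.60 and 8.16 in fl. For Ddit3 it was 4.48, 2.51 and 5.63 in del and 0.349, 0.420 and 0.327 in fl. Relative to Atf4, which was itself lower in del, Trib3 and Ddit4 were thus lower and Ddit3 was higher in every del library than in every fl library. With 3 libraries each, the smallest two-sided p an exact permutation test can give is 0.1, so no test was run on these ratios.

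The promoters of the genes were searched for the sequence that ATF4 binds, since the members split by direction. The search used the RefSeq windows of GRCm38.p6, from 250 bases before to 50 after a start site, of which the 10 genes have 12. The core of the C/EBP-ATF response element, TGATGNAA on either strand, occurred in 4 of the 12 windows, and in 3.97% of all 32851 windows. The cAMP response element TGACGTCA occurred in 1 of the 12 and in 1.79% of all windows. Both motifs cover different letters and no match of one overlapped the other. The windows are shown on the strand of the gene, with the match in capitals; most of them lie on the other strand and so read as the reverse complement of the core, and the Asns window is added for comparison as the gene of a classic amino acid response element.
Chac1 (chr2:119351038-119351067, plus strand): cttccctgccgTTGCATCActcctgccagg
Atf3 (chr1:191183425-191183454, minus strand): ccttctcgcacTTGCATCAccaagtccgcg
Trib3 (chr2:152344028-152344057, minus strand): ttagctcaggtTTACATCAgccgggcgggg
Vldlr (chr19:27216809-27216838, plus strand): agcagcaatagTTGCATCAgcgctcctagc
Ppp1r15a, cAMP response element (chr7:45526269-45526298, minus strand): gagaccccgcctctccggTGACGTCAgcac
Asns (chr6:7693214-7693243, minus strand): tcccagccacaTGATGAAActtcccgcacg
The Chac1 match begins 193 bases and the Atf3 match 110 bases before the start site, and the Trib3 match begins 15 bases after the RefSeq start. The bases just after that Trib3 start were not found in its annotated transcripts, unlike those of the other members. Its position thus rests on the RefSeq start alone. Chac1 and Trib3, which hold the core, were lower in del, and Atf3, which holds it too, was higher. Ddit3, Ddit4, Sesn2, Atf4 and Atf5 had no match to either motif in these windows, which says only that these letters are not in these windows.

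Sites for the deleted microRNAs were sought in the longest annotated 3' UTR of each gene. The cluster encodes 4 seed families, of which the sequences below are examples, 5′ to 3′ from RefSeq (GRCm38.p6, chromosome 14), with the seed (bases 2 to 8) in capitals.
miR-17-5p: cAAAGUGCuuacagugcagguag
miR-18a-5p: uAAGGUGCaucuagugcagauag
miR-19a-3p: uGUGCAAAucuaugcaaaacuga
miR-92a-3p: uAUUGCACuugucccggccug
Of the 10 genes, 3 held a match to the seed of miR-17-5p and miR-20a-5p (GCACTTT), which 15.3% of 9850 tested genes also held, and no member held a match to the other seeds. The matches are shown in capitals, of Vldlr the first of 2.
Atf3: tgtgggatgttaatgGCACTTTtgtct
Sesn2: agccaccaccgacaaGCACTTTgcaga
Vldlr: tctctggccaaatatGCACTTTcccta
Atf3 was higher in del at 0.46, Sesn2 stood at -0.74 without passing the test, and Vldlr was too low to test. Ddit3, whose annotated 3' UTR has 197 nucleotides, held no match to any of the 4 seeds.

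Genes on the input side of the response were described by lists of related genes, read from the same fit over all genes, whose median fold change was -0.003. Of 8 genes for eIF2 kinases and their activators, 4 were higher in del, none was lower and 4 did not pass (median 0.58). Over all genes tested, 65.1% passed, 32.5% higher and 32.6% lower in del, so a smaller share of this list passed. Eif2ak4, the gene of the amino acid sensor GCN2, was at 75.6, 59.2 and 51.1 CPM in del and at 26.9, 20.6 and 21.7 CPM in fl, a change of 1.43 ± 0.18 (adjusted p = 0.000139, edgeR). Eif2ak2, which encodes the RNA sensor PKR, rose by 1.09 ± 0.23 and Gcn1, which encodes the activator of GCN2, by 1.12 ± 0.30. Gcn1 has a long transcript, and its value was 0.17 and no longer called with the length trend removed (adjusted p = 0.653, edgeR). Eif2ak1, the gene of the haem-regulated kinase, passed the test too (0.58, adjusted p = 0.0291, edgeR), but its levels of 39.2, 29.4 and 50 CPM in del and 22.7, 30.3 and 27.3 CPM in fl overlapped. Eif2ak3, the gene of the endoplasmic reticulum kinase PERK, stood at 0.58 without passing (adjusted p = 0.0695). With the length trend removed, 2 of the list were higher.

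Of 9 genes for eIF2, its exchange factor eIF2B and the constitutive phosphatase cofactor, 4 were lower in del, 1 was higher and 4 did not pass (median -0.24). That is 44.4% lower, against 32.6% of all genes tested, of which 65.1% passed in either direction. Eif2b1 and Eif2b2, which encode subunits of eIF2B, were lower in del at -1.14 ± 0.15 and -0.79 ± 0.13 (adjusted p = 0.000142 and 0.000713, edgeR). The Eif2b2 call was lost with the length trend removed (-0.26, adjusted p = 0.123, edgeR). Ppp1r15b, which encodes the constitutive counterpart of GADD34, was at 98.8, 90 and 111 CPM in del and at 51.4, 57.0 and 65.1 CPM in fl, a rise of 0.79 ± 0.15 (adjusted p = 0.00116, edgeR). That call too was lost with the trend removed (0.27, adjusted p = 0.149, edgeR).

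The paralogs of the members were counted as a list of their own. Of 8 tested paralogs 6 were higher and 2 lower in del (median 0.76), against 32.5% higher and 32.6% lower over all genes tested. The count of higher paralogs was 4 with the length trend removed. Sesn1 and Sesn3, the other sestrin genes, rose by 1.32 ± 0.19 and 2.27 ± 0.29 (adjusted p = 0.00024 and 0.000124, edgeR), where Sesn2 stood at -0.74. Sesn3 was at 9.74, 12.8 and 15.9 CPM in del and at 2.18, 3.58 and 2.05 CPM in fl, with no overlap. Trib1, a pseudokinase gene of the family of Trib3, rose by 1.92 ± 0.26 (adjusted p = 0.000176), where Trib3 was at -2.28. Chac2, the constitutive relative of Chac1, was lower at -0.70 ± 0.17 (adjusted p = 0.00495), but stood at -0.06 with the length trend removed and was then not called (adjusted p = 0.771, edgeR). Of this list 1 gene was called lower without del replicate 1, without del replicate 2, without fl replicate 3 or with the trend removed. The same held with library totals as the only scaling and with thinning to the smallest library total. The differences between a member and its paralog were not tested.

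Of 20 tested genes of other bZIP factors, some of whose products pair with ATF4 or CHOP, 9 were higher, 5 lower and 6 not called (median 0.24). The 14 called are close to the 65.1% called over all genes tested. Cebpb, whose product pairs with CHOP and ATF4, was at 79.5, 85.7 and 101 CPM in del and at 25.2, 24.4 and 26.8 CPM in fl (1.80 ± 0.14, adjusted p = 8.23e-06, edgeR). Its del and fl values were well apart. Nfe2l2, the gene of the antioxidant regulator NRF2, rose by 2.42 ± 0.23 (adjusted p = 2.67e-05). Cebpg, whose product is a partner of ATF4 in amino acid gene control, stood at 0.22 and did not pass (adjusted p = 0.255). Batf3, a factor gene of immune cells, had 1 count over the del group and 349 counts over the fl group, which is 137 times the del level (95% counting interval 24.4 to 5426). With the length trend removed, 3 of the list were lower.

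Among targets of ATF4 in amino acid supply, the enzyme genes were mostly lower in del, like Trib3 and Chac1. Of 11 tested enzyme genes 9 were lower, none was higher and 2 did not pass (median -1.41), which is 81.8% lower, against 32.6% of all genes tested. Psph of serine synthesis was at 28.2, 21.8 and 18.9 CPM in del and at 115, 120 and 122 CPM in fl, a change of -2.37 ± 0.17 (adjusted p = 4.44e-06, edgeR). Psat1 of the same pathway and Aldh18a1 of proline synthesis stood at -1.84 ± 0.15 and -1.75 ± 0.14. Asns, the asparagine synthetase gene, named after its values were seen, was at -1.41 (adjusted p = 5.09e-05). Of 7 tested transporter genes 4 were lower and 2 higher (median -1.26). The genes called lower include the enzyme gene Gpt2 (6, 4 and 9 counts in del) and the transporter gene Slc6a9 (3, 5 and 4). For both, not every del library was over the low-count limit, so they entered the test through fl, where they were high. With at least 10 CPM required in 3 libraries, 8 of 10 tested enzyme genes and 3 of 6 tested transporter genes were lower. Slc1a4, a carrier of neutral amino acids, was at -2.23 ± 0.23, and Slc7a5 and Slc3a2, whose products together form a leucine carrier, were at -1.26 ± 0.16 and -1.28 ± 0.15. Slc38a2, a glutamine and alanine carrier gene that amino acid shortage induces, ran the other way at 1.09 ± 0.25 (adjusted p = 0.00447), a call lost with the length trend removed (0.46, adjusted p = 0.144, edgeR), which left 1 transporter gene higher. Slc7a11, the cystine carrier gene, had no count over del and 14 over fl, at least 1.83-fold lower in del with a floor of 3 counts for the group. Of 12 tRNA synthetase genes 6 were lower, none higher and 6 not called (median -0.39), with Yars at -0.69 ± 0.13, Iars at -0.53 ± 0.13 and Gars at -0.73 ± 0.18. That is 50% lower, against 32.6% of all genes tested. The count of lower synthetase genes was 4 with thinning and without del replicate 2, del replicate 3, fl replicate 1 or fl replicate 2. Without fl replicate 1, 1 synthetase gene was called higher.

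Of 13 tested other targets of ATF4 or CHOP outside metabolism, 4 were higher, 3 lower and 6 not called (median 0.22). Set against 32.5% higher and 32.6% lower over all genes tested, these counts are near or under the background. Eif4ebp1, a repressor of translation, was lower in del at -1.78 ± 0.14 (adjusted p = 7.25e-06, edgeR) and Pmaip1, a pro-apoptotic gene, was at -1.88 ± 0.25 (adjusted p = 0.00015). Bcl2l11, a pro-apoptotic gene that CHOP induces and that is also a reported target of the deleted cluster, was higher at 1.13 ± 0.16. The count of lower genes in this list was 5 without del replicate 3, and that of higher genes was 2 when at least 10 CPM were required in 3 libraries.

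Genes of the ATF6 and IRE1 arms of the unfolded protein response, which run beside the PERK arm, were counted in the same way. Of 12 tested, 7 were higher, 4 lower and 1 not called (median 0.59). Lower genes made up 33.3% of the list, near the 32.6% over all genes tested. The share of higher genes, 7 of 12, was above the 32.5% over all genes tested. Calr, an endoplasmic reticulum chaperone gene, was at 1020, 1140 and 1240 CPM in del and at 353, 266 and 193 CPM in fl (2.07 ± 0.22, adjusted p = 4.32e-05, edgeR). Dnajb9, a target of the IRE1 arm, rose by 1.61 ± 0.22, while Xbp1, which encodes the factor of that arm, was lower at -1.09 ± 0.15 (adjusted p = 0.000221). With the length trend removed, 4 were higher and 1 was lower.

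**Figure D3:**
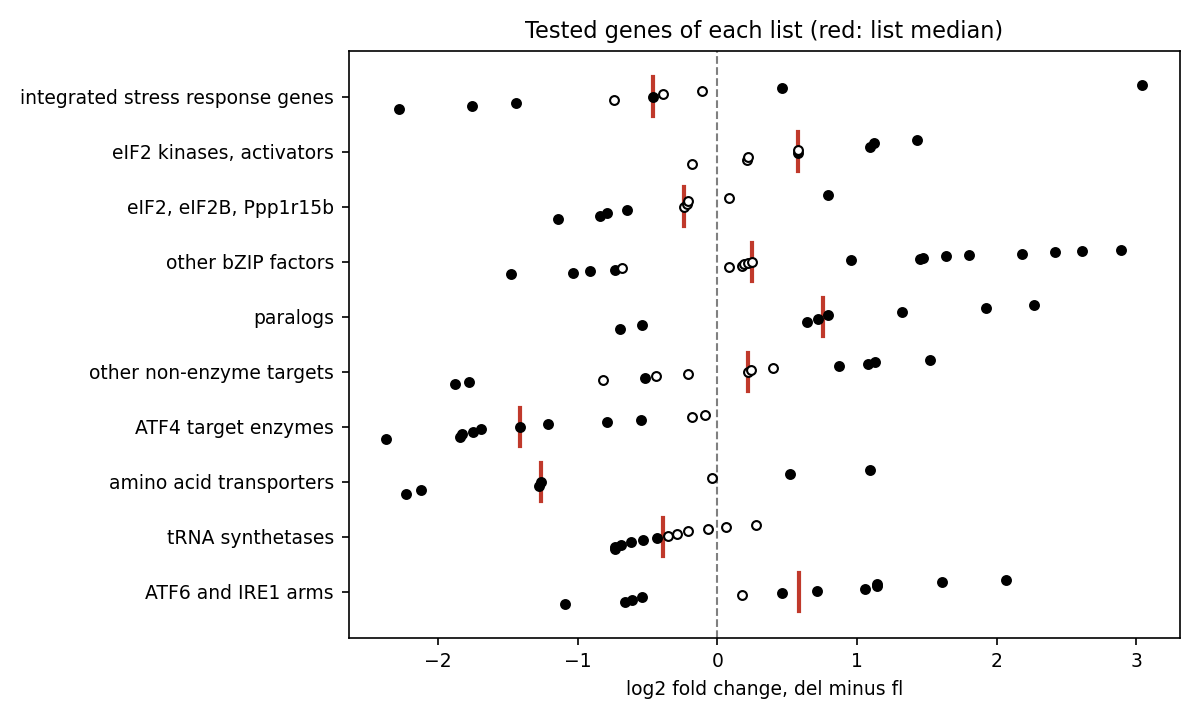
Fold change (del minus fl, log2 scale) of the tested genes of each list, each point a gene and filled where it passed the threshold; the red bar is the list median, and Batf3 is left out for its single del count. The medians run from -1.41 for the ATF4 target enzymes to 0.76 for the paralogs, and Ddit3 is the point furthest to the right among the integrated stress response genes.

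Transcript length moved with the fold change over all genes and was therefore set beside the members. Among the 2002 genes whose longest transcript is shortest (64 to 1994 nucleotides) the median fold change was -0.67, and among the 2002 with the longest transcripts it was 0.80. Ddit3, at 969 nucleotides, lay where the typical fold change was -0.80 and stood at 3.85 with the trend removed. Trib3 stood at -1.91 and Chac1 at -1.25 with the trend removed, both still called (adjusted p = 9.63e-05 and 0.0361, edgeR). Atf3 stood at 0.84, further from 0 than its 0.46 with the trend left in. Atf4, Atf5 and Ppp1r15a lay close to the trend, at -0.09, 0.05 and 0.04 from it, and none of these was called. How much of the trend is technical was not tested.

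**Figure D4:**
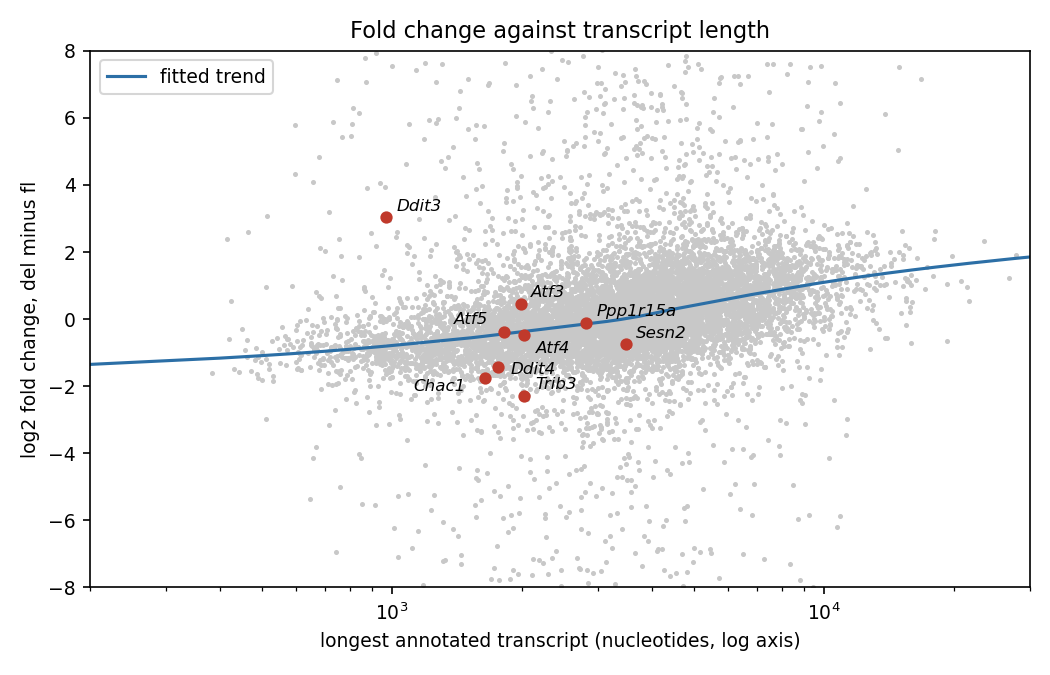
Fold change (del minus fl, log2 scale) against the longest annotated transcript in nucleotides (log axis) for all tested genes with a length (grey), with the fitted trend (blue line) and the 9 tested members (red); 83 genes lie outside the axes. Atf4, Atf5 and Ppp1r15a lie next to the line, Ddit3 lies far above it, and Trib3, Chac1 and Ddit4 lie below it.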

How the data were processed

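Poly(A)-primed, barcoded, strand-specific 3' RNA-seq libraries were made with 12 cycles of PCR, per the labels' protocols. The deposited table holds raw read counts per gene, not normalized. Per the submitters' processing notes, STAR and HTSeq were used with mm10 (versions and settings: not given in the sources used here). Of its 24885 rows, 24052 carried an NCBI gene number and 23969 of these matched a symbol; gene numbers without a symbol held 0.204% to 1.03% of a library's counts.

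Counts were fitted with edgeR 4.0.16 in R 4.3.3 (TMM scaling, low-count filter at a minimum of 10 counts, robust quasi-likelihood test, Benjamini-Hochberg over all genes tested, threshold 0.05). CPM use the scaled library sizes, except for the low-count limit, which uses unscaled library totals. Standard errors and 95% intervals come from the same fit. Intervals and floors of 3 counts on raw counts cover counting error only. The fit was tested on simulated data. The members and lists were chosen with earlier results of these data known. Beside the members, the text names up to 3 genes per list with the smallest adjusted p, and the leading gene of the rarer direction. Eif2ak1, Eif2ak3, Cebpg, Asns, Gpt2, Mars1, Slc6a9, Slc7a11, Nup62, Tulp2 and the marker genes named (Fcgr3 and Cd14 among them) were added after their values were seen. The 15 alternatives covered DESeq2 1.42.0, scaling, filters, thinning, a replicate block, removal of the loess trend on transcript length, and leaving out each library.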

Additional observations from a re-analysis of the deposited data

How the results depend on the processing

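Ddit3 (2.81 to 3.85), Ddit4 (-1.56 to -0.97), Trib3 (-2.70 to -1.91) and Chac1 (-1.96 to -1.25) kept their call in every alternative that tested them, 15 each and 13 for Chac1. Of all member fold changes recomputed, 113 kept direction and call, 9 lost the call, 4 gained it and 4 changed sign. Atf3 lost its call, leaving 1 member higher, under DESeq2 (0.48, adjusted p = 0.0567), upper-quartile scaling in edgeR (0.34, 0.0973), no filter (0.41, 0.0675), thinning (0.36, 0.172) and the replicate block (0.45, 0.051). Leaving out a library gave 0.36 to 0.51 for Atf3 and 1 to 2 higher members. Sesn2 gained a call under upper-quartile scaling (-0.87, adjusted p = 0.0249) and no filter (-0.79, 0.0406), and ranged from -1 to -0.54 with a library left out. With the length trend removed Atf4 stood at -0.09, Atf5 at 0.05 and Ppp1r15a at 0.04, none called; the cause was not tested. With a library left out, Atf5 ranged from -0.83 to -0.15 and Ppp1r15a from -0.31 to 0.08. Upper-quartile scaling moved the median of all genes by -0.128. Replicate numbers did not pair the libraries (correlations of same-numbered deviations 0.085, -0.041 and -0.023, and not every library matched its own number best), and Atf3 was the member whose call the block removed. Thinning left 7 members with enough counts to test, and the 10 CPM filter left 6, which limits Chac1, Atf5 and Sesn2 most.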
